A study of Mus musculus with 24 samples.

Results

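The genes described here are 10 transcripts that mark the neutrophil lineage: the azurophil (primary) granule genes Elane, Prtn3, Ctsg and Mpo, the specific granule genes Ltf, Camp, Ngp and Lcn2, and the calcium-binding genes S100a8 and S100a9. They were taken by symbol from the authors' gene table, as a gauge of granulocyte RNA in dendritic cell cultures, and are 10 of 55487 genes in it. All 10 were found, and all 10 passed the filter on low counts that left 14535 genes for testing. They were read in 24 poly(A) RNA-seq libraries of mouse bone-marrow-derived dendritic cells, sampled on days 7, 8, 9 and 10 of differentiation. The design asks how control and Arpc4 knockout cultures differ along that course.

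Control cultures (WT) carried the genotype ARPC4 Flox/Flox CD11c-Cre -/-, that is, both floxed alleles without Cre. Knockout cultures (KO) were ARPC4 Flox/Flox CD11c-Cre +/-, so the CD11c promoter drove Cre and deletion can begin only in cells that switch that promoter on. Both genotypes therefore carried the floxed alleles. Marrow came from mice of 8 to 10 weeks and of both sexes. It was grown in medium with GM-CSF supernatant at 50 ng/mL and replated on days 4 and 7. Only floating cells were harvested, at a stage when over 90% were CD11c+ by flow cytometry, and the attached cells, which the protocol names as granulocytes and macrophages, were thrown away. Each of the 8 groups of 1 genotype and 1 day held 3 libraries from mice numbered 63, 65 and 66 (WT) or 64, 67 and 68 (KO).

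Neutrophils fill their granules in order as they mature in the marrow. Promyelocytes make the serine proteases and myeloperoxidase of primary granules, myelocytes and metamyelocytes make the proteins of specific granules, and transcription of each set is largely switched off before the cell leaves the marrow. S100a8 and S100a9 encode the pair of proteins that form calprotectin, which is stored in the cytosol of neutrophils and monocytes in large amounts. GM-CSF acts on granulocyte precursors as well as on the precursors of macrophages and dendritic cells, so marrow cultures grown in it hold several myeloid lineages.

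Libraries held 19952047 to 31049798 counts, with 19952047 to 28651870 in WT and 24030705 to 31049798 in KO. The targeted gene Arpc4 was lower in KO on each day without overlap (169.0 ± 13.8 against 192.1 ± 5.62 CPM on day 7, and 180.6 ± 6.85 against 219.9 ± 18.9 CPM on day 10; SD, n = 3), with edgeR adjusted p of 0.18, 0.69, 0.43 and 0.22 on days 7 to 10. The dendritic cell label was checked against Itgax, the gene of CD11c, which stood at 473.6 to 1117 TPM in every library, and Cd74, the invariant chain of MHC class II, at 1223 to 8818 TPM. Some other markers on that list were low: Flt3, a receptor of dendritic cell precursors, stood at 0.39 to 3.76 TPM, and Cd209a and Dpp4 at 0.43 to 2.51 and 1.11 to 5.04 TPM on day 7. By day 10 Cd209a stood at 8.54 to 17.04 TPM in WT and 7.37 to 14.91 TPM in KO. The summed macrophage markers stood above the summed dendritic cell markers on day 7 in both genotypes (6819 to 7510 against 2481 to 3367 TPM in WT and 6632 to 8172 against 3143 to 4406 TPM in KO). The Y-linked Ddx3y stood at 34.5 to 47.3 TPM in 8 libraries, 1 per group, in which Xist was at 0.08 TPM or less, while the other 16 had Ddx3y at 0.08 TPM or less and Xist at 83.5 to 170.7 TPM. In WT the high-Ddx3y library was number 63 on every day, but in KO it was number 64 on days 7 and 9, number 68 on day 8 and number 67 on day 10, so the KO numbers and Ddx3y did not go together over the days.

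All 10 genes were transcribed in every library, and the S100 pair dominated. On the TPM scale, which takes gene length into account, the average over the 8 group means was 7403 TPM for S100a9 and 3473 TPM for S100a8. The specific granule genes followed, with Ngp at 1785, Ltf at 408.4, Lcn2 at 287.7 and Camp at 183.5 TPM. Among the primary granule genes Elane stood at 189.5 TPM, close to Camp, with Prtn3 at 101.8, Mpo at 93.7 and Ctsg at 49.7 TPM. S100a9 exceeded S100a8 by a factor of 1.97 to 2.45 in all 24 libraries, with a median of 2.15. Fewer cells of a type and less RNA per cell cannot be told apart in bulk RNA, here or in any level below.

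Together the 10 genes made up 0.577% to 1.15% of all TPM in the WT libraries on day 7 and 0.821% to 1.09% on day 8. Their share was 1.28% to 1.48% on day 9 and 1.77% to 2.43% on day 10. In WT each day 10 library thus stood above every library of the earlier days. In KO the share was 0.810% to 2.32% on day 7, 0.941% to 1.57% on day 8, 1.26% to 1.72% on day 9 and 1.14% to 2.20% on day 10. The KO groups overlapped, and the KO library with the largest share came from day 7. The mean TPM sum on day 10 was 2.43 times that on day 7 in WT and 1.24 times in KO. As shares of counts the ratios were 2.29 and 1.16. TPM is not the scale of the edgeR tests below. In those tests the median log2 fold change of the 10 genes was 0.96 in WT and 0.01 in KO. Without the libraries numbered 67 the KO ratio of TPM sums was 2.10, and without number 64 or 68 it was 0.946 and 1.02. Leaving out 1 number in WT gave 2.22 to 2.71. In KO number 67 had the largest sum on day 7, with low Ddx3y, and the smallest on day 10, with high Ddx3y. Leaving out this number therefore did not amount to leaving out 1 mouse. Most of this sum is S100 RNA, while the 8 granule genes alone summed to 1387 to 2533 TPM in WT on day 7 and 3759 to 5414 TPM in WT on day 10. On the same days they summed to 1847 to 4738 TPM and to 2597 to 4883 TPM in KO.

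**Figure D1:**
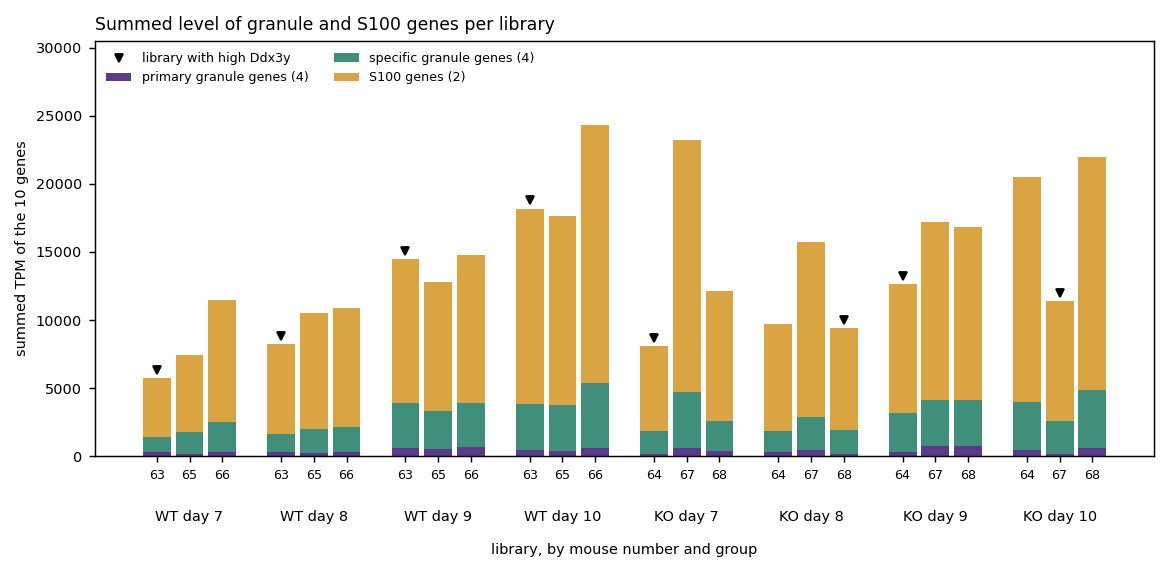
Summed TPM of the 10 genes in each of the 24 libraries (bars from 0, stacked by gene class; 3 libraries per group, labelled by mouse number; arrowheads mark libraries with high Ddx3y). WT sums run from 5770 to 11480 on day 7 and from 17680 to 24310 on day 10, while KO sums on day 7 (8101 to 23190) span those of day 10 (11420 to 21980).

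The serine proteases come first. Elane encodes neutrophil elastase and Prtn3 proteinase 3, and they are neighbours on chromosome 10. Prtn3 (ENSMUSG00000057729.12, 79874476 to 79883174) and Elane (ENSMUSG00000020125.7, 79886247 to 79888215) lie on the forward strand 3072 bp apart with no protein-coding gene between them (GENCODE M21 on GRCm38). Ctsg, the gene of cathepsin G (ENSMUSG00000040314.2), lies on chromosome 14, 56099881 to 56102574, reverse strand. Mpo, the gene of myeloperoxidase, the enzyme that makes hypochlorous acid (ENSMUSG00000009350.13), lies on chromosome 11, 87793581 to 87804413, forward strand. Plppr3 runs across Prtn3 on the other strand and drew 13.2% as many counts as Prtn3 did. Whether the counter used strand is not given in the sources used here, so reads of these partners cannot be told apart.

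Because the primary granule genes moved together from library to library, the 250 bases upstream of each RefSeq start (GRCm38.p6) were searched on both strands for GAGGAA, a core bound by the myeloid factor PU.1, and for TTNNGNAA, a core of C/EBP sites. The core GAGGAA was present upstream of 7 of the 10 genes, against 23.1% of 27025 promoters of the same length. All 4 primary granule genes held it and none of them held the C/EBP core, which 37.0% of all promoters hold. A match describes letters only and does not show binding. The 3 protease promoters are shown 5′ to 3′ where no annotated exon covers them, with GAGGAA in capitals; the RefSeq start of Prtn3 lies inside the longer GENCODE span.
Elane, chr10:79886062-79886246, forward strand: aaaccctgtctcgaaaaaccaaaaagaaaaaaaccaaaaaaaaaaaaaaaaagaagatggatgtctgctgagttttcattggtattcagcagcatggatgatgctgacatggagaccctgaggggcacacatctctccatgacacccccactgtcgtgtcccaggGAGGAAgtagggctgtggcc
Prtn3, chr10:79879417-79879613, forward strand: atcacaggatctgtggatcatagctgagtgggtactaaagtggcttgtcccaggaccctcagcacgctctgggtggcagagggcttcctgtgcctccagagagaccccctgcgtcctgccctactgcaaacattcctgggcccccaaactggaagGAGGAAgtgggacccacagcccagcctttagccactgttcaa
Ctsg, chr14:56102575-56102824, reverse strand: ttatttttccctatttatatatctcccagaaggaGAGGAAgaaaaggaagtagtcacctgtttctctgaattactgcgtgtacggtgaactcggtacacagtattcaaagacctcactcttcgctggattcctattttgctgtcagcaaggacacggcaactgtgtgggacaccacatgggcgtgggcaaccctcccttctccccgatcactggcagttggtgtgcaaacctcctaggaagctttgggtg

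Elane stood at 47.0, 30.9 and 46.3 CPM in the WT libraries of day 7 (mice 63, 65 and 66, in that order here and below) and at 66.7, 62.2 and 94.2 CPM on day 10. All WT values of day 10 lay above those of day 7. In KO it stood at 23.6, 84.9 and 57.4 CPM on day 7 (numbers 64, 67 and 68, in that order here and below) and at 60.1, 26.6 and 86.8 CPM on day 10. The KO values of the days overlapped each other and those of WT. The change from day 7 to day 10 was 0.85 ± 0.40 (log2 fold change ± SE) in WT with an edgeR adjusted p of 0.11, and 0.07 ± 0.40 in KO with 0.92. Neither passed the threshold of 0.05, but the WT call depends on the setting: Elane passed in 7 of 16 alternatives, with adjusted p from 0.00043 to 0.36. All p-values here measure the spread between these libraries only.

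Ctsg was the scarcest of the 10. It stood at 10.4, 7.54 and 8.64 CPM in WT on day 7 and at 15.4, 15.6 and 23.96 CPM on day 10. The groups did not overlap, and the gene rose by 1.05 ± 0.39 (log2 fold change ± SE, edgeR adjusted p = 0.039). Without mouse 63, 65 or 66 its adjusted p was 0.085, 0.15 and 0.28. Its lowest log2 fold change over 16 alternatives was 0.79, without mouse 66. In KO it read 6.95, 24.4 and 12.8 CPM on day 7 and 16.01, 7.75 and 20.3 CPM on day 10, with a change of 0.00 ± 0.38 and an edgeR adjusted p of 1.0.

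Prtn3 and Mpo did not pass the test in either genotype, although Prtn3 passed in WT in 1 of 16 alternatives (edgeR adjusted p = 0.025 with exchanged KO numbers as a replicate block). Prtn3 averaged 44.5 ± 10.7 CPM in WT on day 7 and 59.8 ± 14.4 CPM on day 10 (SD, n = 3), and 63.3 ± 32.2 and 49.6 ± 23.96 CPM in KO. Mpo stood at 92.2, 67.6 and 91.4 CPM in WT on day 7 and at 83.7, 77.6 and 131.3 CPM on day 10. In KO it read 49.8, 163.3 and 112.2 CPM and then 81.0, 37.4 and 127.6 CPM, so the days overlapped in both genotypes. The changes in WT were 0.43 ± 0.39 for Prtn3 and 0.22 ± 0.42 for Mpo (log2 fold change ± SE), with edgeR adjusted p of 0.42 and 0.72. In KO they were -0.35 ± 0.39 and -0.40 ± 0.42, with edgeR adjusted p of 0.52 and 0.48.

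The primary granule genes were highest on day 9 in the order of group means. Elane, Prtn3 and Ctsg peaked in WT on day 9 at 80.6 ± 8.19, 74.3 ± 8.93 and 23.3 ± 3.50 CPM (SD, n = 3), and Mpo in KO on day 9 at 143.2 ± 55.5 CPM, next to 140.8 ± 12.1 CPM in WT. Their lowest means were in KO on day 8 for Elane and Prtn3 (40.4 CPM each), in WT on day 8 for Mpo (74.9 CPM) and in WT on day 7 for Ctsg (8.85 CPM). Day 9 was not tested against other days. Over all 10 genes, 70 pairs of groups were neighbours in the order of means, and in 67 of them the libraries overlapped.

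**Figure D2:**
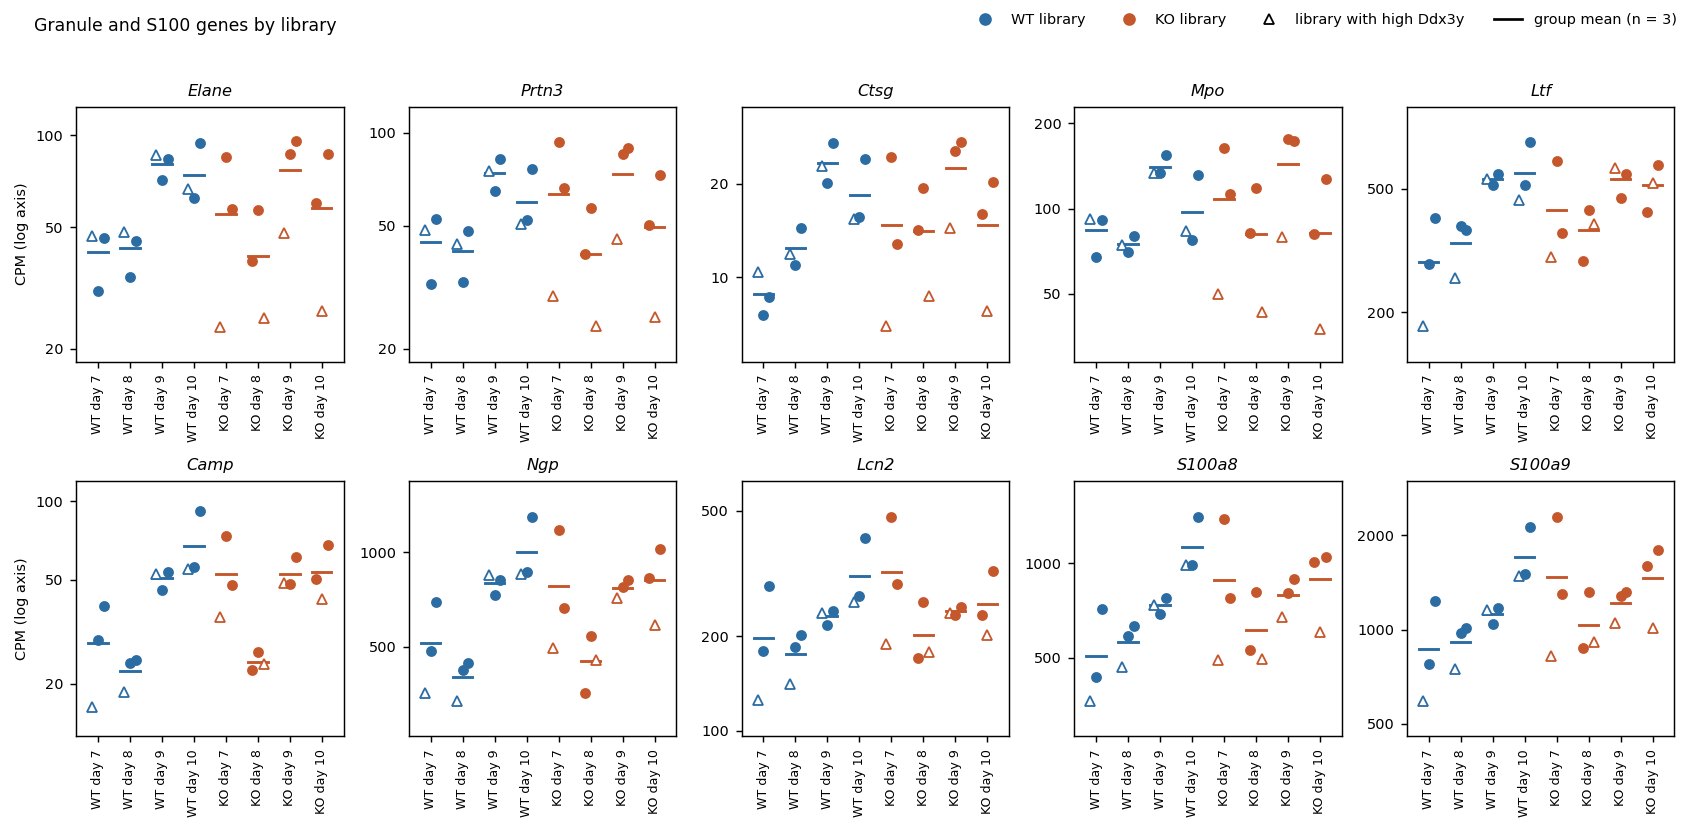
CPM of the 10 genes in each library (log axis; 1 point per library, 3 per group, bars are group means, open triangles are libraries with high Ddx3y). In 7 panels all WT points of day 10 lie above those of day 7, and the open triangles lie at the bottom of each KO group for Elane, Prtn3, Ctsg and Mpo.

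Among the specific granule genes, Ltf encodes lactoferrin, an iron-binding protein. Camp encodes the precursor of the cathelicidin antimicrobial peptide, Ngp encodes neutrophilic granule protein of the cystatin fold, and Lcn2 encodes lipocalin 2, which captures bacterial siderophores. Camp (ENSMUSG00000038357.10, 109847379 to 109849617, reverse strand), Ngp (ENSMUSG00000032484.8, 110419747 to 110423012, forward strand) and Ltf (ENSMUSG00000032496.7, 111019271 to 111042767, forward strand) all lie on chromosome 9. They are not immediate neighbours, with 8 protein-coding genes between Camp and Ngp and 20 between Ngp and Ltf. Lcn2 (ENSMUSG00000026822.14) lies on chromosome 2, 32384633 to 32388252, reverse strand.

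Of these genes, 3 of 4 had the C/EBP core within 250 bases upstream, with 3 matches at Ngp, 2 at Ltf and 1 at Lcn2. Camp had neither core. Of the S100 pair, S100a8 held 1 C/EBP match and S100a9 held 2. Over all 10 genes, 5 held the C/EBP core, against 37.0% of all promoters. The stretches of Ltf, Ngp and S100a9 free of annotated exons are shown with both cores in capitals, of which TTCCTC in Ltf is GAGGAA read on the other strand. The third match of Ngp lies closer to the start than the stretch printed.
Ltf, chr9:111019042-111019270, forward strand: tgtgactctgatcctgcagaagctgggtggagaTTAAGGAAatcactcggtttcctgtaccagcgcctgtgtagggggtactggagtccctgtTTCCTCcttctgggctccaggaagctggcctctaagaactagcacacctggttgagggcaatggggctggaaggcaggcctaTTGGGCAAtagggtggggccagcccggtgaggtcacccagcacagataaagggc
Ngp, chr9:110419558-110419746, forward strand: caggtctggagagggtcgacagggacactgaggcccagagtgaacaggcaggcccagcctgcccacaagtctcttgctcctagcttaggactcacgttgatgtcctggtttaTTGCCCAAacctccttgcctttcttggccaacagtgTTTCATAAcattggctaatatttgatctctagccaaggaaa
S100a9, chr3:90695722-90695971, reverse strand: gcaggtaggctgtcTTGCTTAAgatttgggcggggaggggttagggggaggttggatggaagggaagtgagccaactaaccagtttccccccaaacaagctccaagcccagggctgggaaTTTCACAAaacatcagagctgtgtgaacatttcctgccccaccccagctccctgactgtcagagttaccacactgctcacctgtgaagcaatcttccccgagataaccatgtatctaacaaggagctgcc

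Camp had the largest change of the 10 from day 7 to day 10 in WT. It stood at 16.3, 29.5 and 39.8 CPM in WT on day 7 and at 55.3, 55.9 and 92.0 CPM on day 10. The groups did not overlap, and Camp rose by 1.25 ± 0.28 (log2 fold change ± SE, edgeR adjusted p = 0.0014). In KO it read 35.9, 73.9 and 48.0 CPM on day 7 and 50.4, 42.1 and 68.1 CPM on day 10. These KO values overlapped, with a change of 0.03 ± 0.27 and an edgeR adjusted p of 0.95.

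Ltf and Ngp also rose from day 7 to day 10 in WT. Ltf stood at 180.4, 286.6 and 403.5 CPM on day 7 and at 459.8, 513.1 and 708.6 CPM on day 10, a rise of 0.95 ± 0.26 with an edgeR adjusted p of 0.0076. Ngp stood at 356.5, 486.1 and 694.8 CPM on day 7 and at 851.0, 864.9 and 1299 CPM on day 10, a rise of 0.97 ± 0.28 with an edgeR adjusted p of 0.0088. Neither gene overlapped between those days. In KO, Ltf read 301.1, 615.8 and 361.7 CPM on day 7 and 421.6, 520.9 and 598.1 CPM on day 10, a change of 0.27 ± 0.26 with an edgeR adjusted p of 0.45. Ngp read 494.8, 1183 and 663.1 CPM and then 828.7, 589.0 and 1025 CPM in KO, a change of 0.06 ± 0.27 with an edgeR adjusted p of 0.89. Both genes overlapped between the KO days.

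Lcn2 stood at 125.0, 178.9 and 287.8 CPM in WT on day 7 and at 257.1, 267.6 and 408.3 CPM on day 10. Number 66 of day 7 exceeded numbers 63 and 65 of day 10, and the change of 0.66 ± 0.29 had an edgeR adjusted p of 0.085. With the mouse number as a block in edgeR it was 0.69 with an adjusted p of 0.035. In KO Lcn2 was highest on day 7, at 188.2, 477.2 and 292.7 CPM, against 232.7, 201.9 and 321.3 CPM on day 10. That change was -0.34 ± 0.29 with an edgeR adjusted p of 0.39.

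The S100 pair encodes calcium-binding proteins of the EF-hand kind that pair to form calprotectin. S100a8 (ENSMUSG00000056054.9, 90668978 to 90670035, forward strand) and S100a9 (ENSMUSG00000056071.12, 90692632 to 90695721, reverse strand) lie 22596 bp apart on chromosome 3. S100a8 stood at 365.1, 434.3 and 714.5 CPM in WT on day 7 and at 988.6, 989.7 and 1404 CPM on day 10. S100a9 stood at 592.8, 778.8 and 1233 CPM and then at 1487, 1504 and 2127 CPM. Neither overlapped between the days. S100a8 rose by 1.16 ± 0.31 and S100a9 by 0.97 ± 0.30 (log2 fold change ± SE, edgeR adjusted p = 0.0054 and 0.015).

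In KO the S100 pair did not pass the test. S100a8 read 491.9, 1379 and 773.9 CPM on day 7 and 1009, 605.3 and 1048 CPM on day 10, a change of 0.01 ± 0.30 with an edgeR adjusted p of 0.99. S100a9 read 820.9, 2292 and 1296 CPM on day 7 and 1597, 1009 and 1791 CPM on day 10, a change of 0.00 ± 0.30 with an edgeR adjusted p of 0.99. The highest KO library for both was number 67 of day 7, and the lowest of day 10 was also labelled 67, the library with high Ddx3y there.

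Counted together, 6 of the 10 genes were called higher on day 10 than on day 7 in WT (Ctsg, Ltf, Camp, Ngp, S100a8 and S100a9). Among all genes 18.9% were called higher and 37.0% in either direction. All 10 had a positive log2 fold change, from 0.22 for Mpo to 1.25 for Camp, with a median of 0.96 against -0.02 over all genes tested. In 7 of the 10 the day 10 values lay above those of day 7 without overlap, which held for 25.0% of all genes. Without mouse 63 the count fell to 2 (13.7% of all genes), and without mouse 65 it fell to 1, Camp (13.3%). Over the 16 libraries with low Ddx3y alone it was 7 (16.9%). With the mouse number as a replicate block it was also 7, with Lcn2 added (18.9%). With exchanged KO numbers as the block Prtn3 passed (22.1%). On log2(TPM + 1) with limma-trend the count was 8, but there 39.9% of all genes were called higher and 7.37% lower, against 18.9% and 18.1% in edgeR, and the median over all genes shifted to 0.21 (WT) and 0.25 (KO). The lowest log2 fold changes over 16 alternatives were 0.79 for Ctsg, 0.83 for Ltf, 0.88 for Ngp and 1.10 for Camp. They were 1.06 for S100a8 and 0.86 for S100a9.

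In KO none of the 10 was called between the same days, against 36.8% of all genes in either direction, and 0 had an unadjusted p under 0.05. The log2 fold changes ran from -0.40 for Mpo to 0.27 for Ltf, with a median of 0.01, and 95% intervals from edgeR standard errors (t quantiles on 16 degrees of freedom) reached from -1.28 to 0.91. Leaving out the libraries numbered 67 in KO made 3 genes pass as higher on day 10, against 20.2% of all genes: Ctsg (0.87), Ngp (0.67) and S100a8 (0.69), with edgeR adjusted p of 0.038, 0.042 and 0.042. Number 67 had Ddx3y at 0.0 and Xist at 108.9 TPM on day 7, but 36.07 and 0.03 TPM on day 10. These libraries thus did not come from 1 mouse.

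The difference between these changes was tested itself, as KO minus WT. It uses the same day 7 and day 10 libraries as the comparisons of days and of genotypes, so their values are not independent. It was negative for all 10 genes, from -0.62 ± 0.59 for Mpo to -1.22 ± 0.38 for Camp, with a median of -0.94. No gene passed, with edgeR adjusted p from 0.54 to 0.93, 5 genes at an unadjusted p under 0.05 against 6.31% of all genes, and 0.0619% of all genes called. The DESeq2 Wald test called none of the 10 either. The 95% interval of Camp was -2.04 to -0.41 before adjustment. With the mouse as a replicate block and KO numbers exchanged to follow Ddx3y, Camp (-1.23) and S100a8 (-1.11) passed as lower, against 1.27% of all genes, with edgeR adjusted p of 0.027 and 0.022. Without the libraries numbered 67 the difference was 0.00 for Elane and 0.13 for Mpo, while the other 8 stayed negative, from -0.08 for Prtn3 to -0.77 for Camp, with -0.48 for S100a8 and -0.47 for Lcn2.

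**Figure D3:**
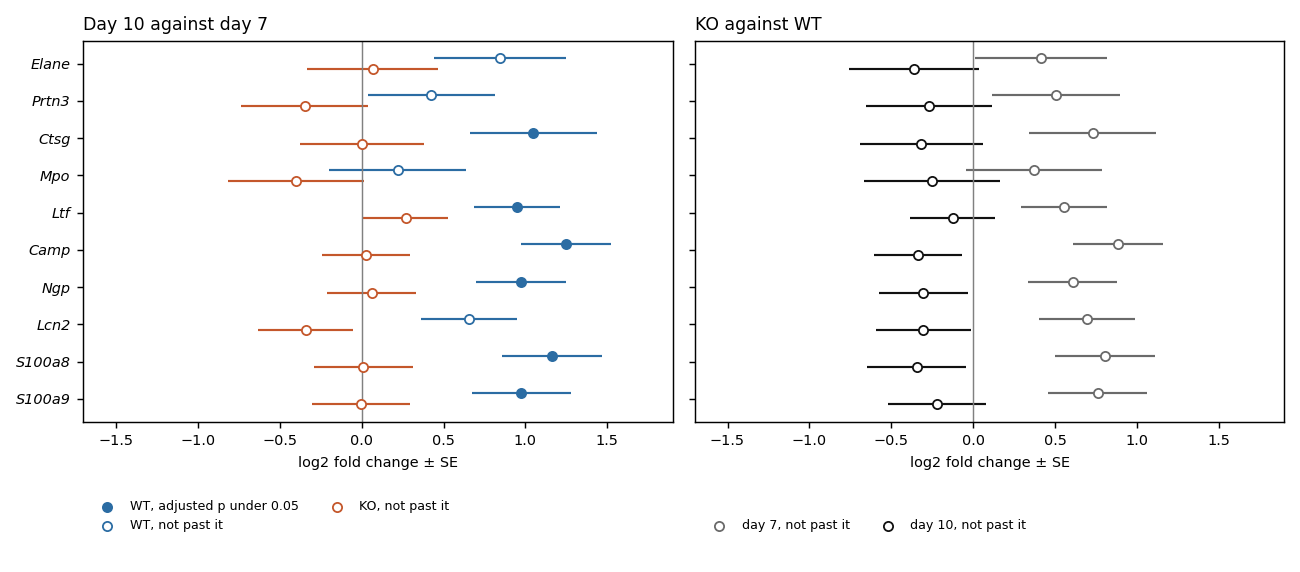
Log2 fold changes of the 10 genes with their standard errors from edgeR (left: day 10 against day 7 in WT and KO; right: KO against WT on days 7 and 10; filled points have an adjusted p under 0.05). In the left panel all WT points lie above 0 and 6 are filled, while KO points lie on both sides of 0. In the right panel all day 7 points are positive and all day 10 points negative, with none filled.

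KO was also compared with WT within each day. On day 7 none of the 10 genes was called, against 1.45% of all genes, and none had libraries without overlap between genotypes, against 26.2%. All 10 log2 fold changes were positive, from 0.37 ± 0.42 for Mpo to 0.88 ± 0.28 for Camp, with a median of 0.65 against -0.01 over all genes. The edgeR adjusted p ran from 0.11 to 0.71, and 6 genes had an unadjusted p under 0.05 (the specific granule genes and the S100 pair), against 15.7% of all genes. Camp passed in the DESeq2 Wald test (0.90, adjusted p = 0.031). KO number 67 was the highest of its group for all 10 genes, and without it the difference was 0.58 for Camp and -0.02 for Elane. Markers of other cells also had positive medians on day 7, at 0.66 for eosinophils, basophils and mast cells and 0.46 for dendritic cells. The medians were 0.45 for monocytes, 0.24 for macrophages, 0.17 for erythroid and lymphoid cells and 0.08 for progenitors. Among these markers 1 of 6 for monocytes and 1 of 10 for macrophages were called higher, against 1.45% of all genes called in either direction.

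On the later days the granule and S100 genes did not pass either. On day 8 none of the 10 was called (0.00688% of all genes were) and none lacked overlap (9.39% of all genes did), with a median log2 fold change of 0.13. On day 9 again none was called (0.00688% of all genes) and none lacked overlap (14.1%), with a median of 0.01. On day 10 none was called (0.0138% of all genes) and none lacked overlap (10.4%), while all 10 log2 fold changes were negative, from -0.36 ± 0.40 for Elane to -0.13 ± 0.26 for Ltf. The edgeR adjusted p on day 10 ran from 0.85 to 0.97, and 95% intervals reached from -1.20 to 0.63, so sizeable differences in either direction were not resolved with 3 libraries a group. The DESeq2 Wald test called none of the 10 on days 8, 9 and 10, and 0 had an unadjusted p under 0.05 in edgeR.

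The first day after replating was tested as well. In KO, Camp fell from 35.9, 73.9 and 48.0 CPM on day 7 to 22.6, 26.4 and 23.8 CPM on day 8 with no overlap (23.6% of all genes were lower without overlap), by 1.12 ± 0.28 on the log2 scale (edgeR adjusted p = 0.0029). Ngp read 355.2, 539.4 and 454.3 CPM on day 8 and fell by 0.80 ± 0.27 (edgeR adjusted p = 0.025), although its values overlapped those of day 7. These were 2 of the 10 genes called, both lower, against 20.9% of all genes called lower and 42.0% called in either direction. All 10 were negative in KO, with a median of -0.52, but on log2(TPM + 0.1) with limma-trend Ctsg (0.27) and Ltf (0.07) were positive. In that fit the median over all genes was 0.22, against 0.002 in edgeR. Without number 65, 67 or 68 the edgeR adjusted p of Ngp was 0.051, 0.13 and 0.056, while Camp passed in all 16 alternatives. With exchanged KO numbers as a replicate block, 5 of the 10 were called lower, against 24.9% of all genes in that fit.

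In WT none of the 10 was called between days 7 and 8, against 43.4% of all genes, with 5 positive and 5 negative log2 fold changes and 0 at an unadjusted p under 0.05. They ran from -0.36 ± 0.27 for Ngp to 0.48 ± 0.39 for Ctsg. The DESeq2 Wald test called none either. Ctsg was the 1 gene of 10 whose libraries did not overlap between these WT days, against 59.8% of all genes, at 10.4, 7.54 and 8.64 CPM and then at 11.9, 10.9 and 14.4 CPM. It was called when only these groups entered the fit (0.49, edgeR adjusted p = 0.013).

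Spread between mice was wide for these genes. The median standard deviation of log2 CPM over the 10 was 0.74 in KO on day 7 and 0.49 in WT on day 7, against 0.14 and 0.11 over all genes tested. On day 9 the members had 0.11 in WT and 0.20 in KO, while all genes had 0.13 and 0.16. The highest library exceeded the lowest by up to 3.59 times in KO on day 7 (Elane) and up to 2.43 times in WT on day 7 (Camp). Number 67 of KO day 7 was highest for 10 of the 10 genes and number 64 lowest for 10 of 10. In WT on day 10 number 66 was highest for 10 of 10.

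**Figure D4:**
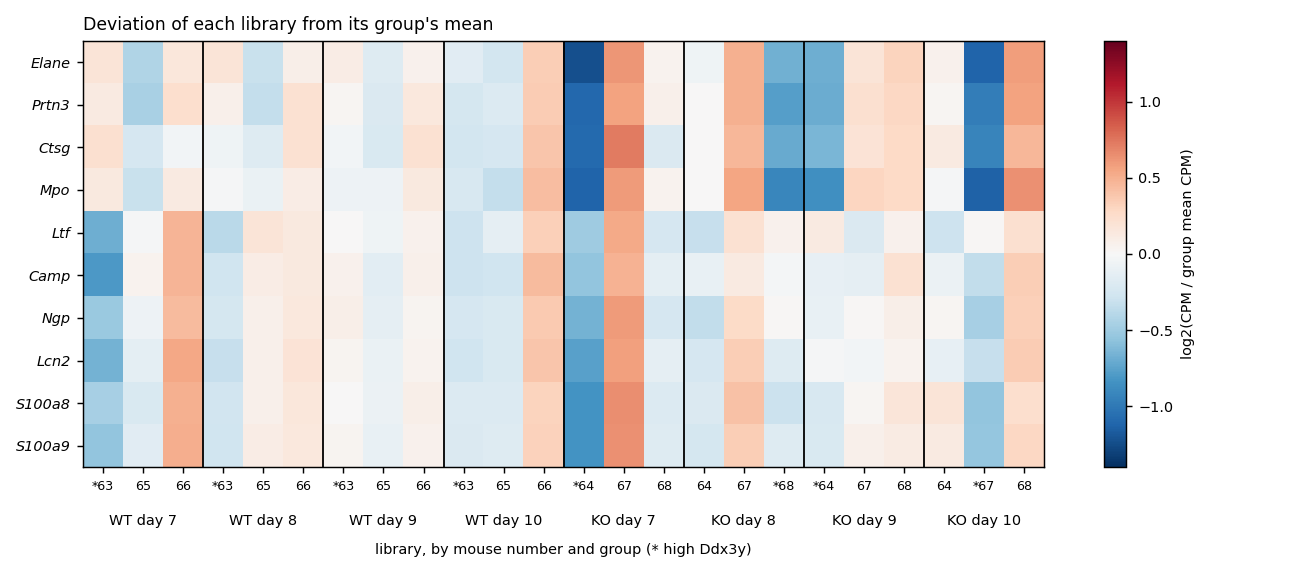
Log2 ratio of each library's CPM to its group mean (rows are genes, columns are libraries by mouse number and group, asterisks mark high Ddx3y; red is above the mean, blue below). In the rows of Elane, Prtn3, Ctsg and Mpo each KO library with high Ddx3y is the lowest of its group, and number 67 of KO day 7 is the highest of its group in all 10 rows.

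In KO the primary granule genes stood lowest in the library with high Ddx3y on each day. In KO the library with high Ddx3y was the lowest of 3 on all 4 days for Elane, Prtn3, Ctsg, Mpo and S100a8, which are 5 of the 10 genes, against 9.71% of all genes. In WT this held for 0 of the 10, against 2.88% of all genes. There the library with high Ddx3y was the highest in 3 of 4 groups for Elane, in 1 each for Ctsg and Mpo and in 0 for Prtn3. The KO library with high Ddx3y had 0.33 to 0.54 times the mean CPM of the other 2 of its group for primary granule genes, with a median of 0.43. In WT the same ratio was 0.78 to 1.28, with a median of 1.0. The ratios did not overlap, and with 1 such library per group no test of this was made. In WT these libraries were all number 63, and with exchanged numbers those of KO would share a number too. The 4 days may thus repeat 1 mouse per genotype, so mouse and Ddx3y status cannot be told apart.

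The specific granule genes and the S100 pair gave ratios that overlapped between genotypes. For the specific granule genes the ratio was 0.49 to 1.14 in KO and 0.47 to 1.09 in WT. For the S100 pair it was 0.46 to 0.83 in KO and 0.59 to 1.04 in WT. In KO the library with high Ddx3y was the lowest in 4 of 4 groups for S100a8, in 3 of 4 for S100a9 and Ngp, in 2 of 4 for Camp and Lcn2 and in 1 of 4 for Ltf. In WT that library, number 63, was the lowest in 3 of 4 groups for each of Ltf, Camp, Ngp, Lcn2, S100a8 and S100a9. With high Ddx3y as a covariate in edgeR, 7 of the 10 were called higher on day 10 in WT (19.6% of all genes), 3 lower on day 8 in KO (21.6%), and 1, Camp, higher in KO on day 7 (0.984%).

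**Figure D5:**
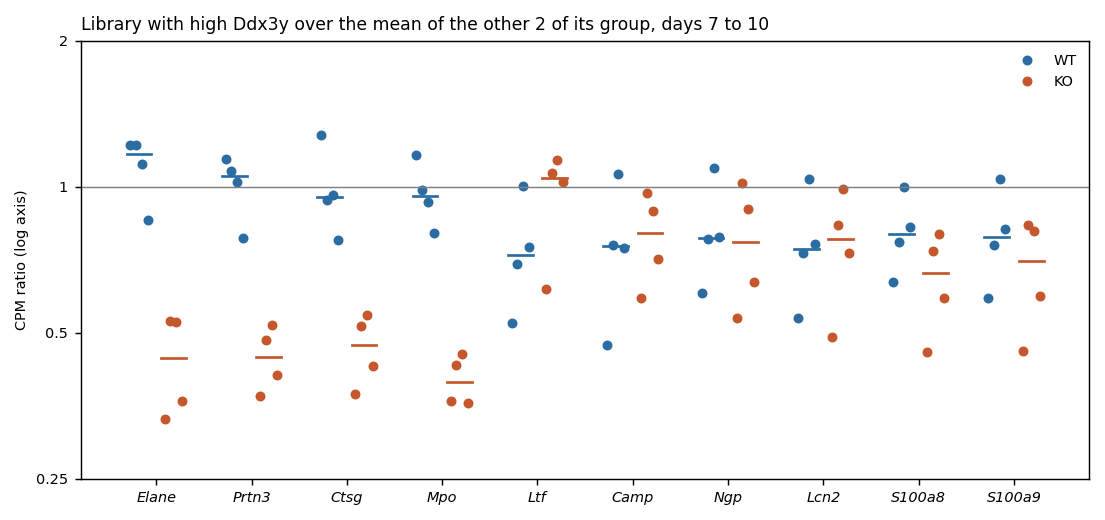
CPM of the library with high Ddx3y divided by the mean of the other 2 libraries of its group (log axis; 4 points per gene and genotype, 1 per day; bars are medians). For Elane, Prtn3, Ctsg and Mpo the KO points lie between 0.33 and 0.54, below all WT points of those genes, whereas for the other 6 genes the points of the genotypes overlap.

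Ratios within the set were read for picked pairs of granule genes only, so they do not show whether ratios separate the classes in general. The Ngp to Elane ratio in TPM ran from 5.59 to 17.8 over the 24 libraries, whereas Ngp to Camp ran from 8.27 to 13.5 and Elane to Prtn3 from 1.41 to 2.32. The Elane to Prtn3 ratio did not overlap between days 7 and 10 in either genotype, at 1.55 to 1.71 and 2.09 to 2.32 in WT and at 1.405 to 1.595 and 1.85 to 2.10 in KO. As a description over 24 libraries that share cultures and days, the mean profile of the 4 primary granule genes had a Pearson r of 0.90 with Myb, a transcription factor of dividing progenitors, and 0.88 with Prss57, another protease of primary granules, followed by Bcr, Nkg7 and Plac8. The specific granule profile, built from Ltf, Camp and Ngp without Lcn2, was most like Pi16 (0.95), Itgb2l (0.93), 9830107B12Rik, Rflnb and Sept5. The S100 profile was most like Dgat2 (0.96), Pi16 (0.94), Nfe2, Siglece and Mxd1. Lcn2 itself had an r of 0.878 with the profile of Ltf, Camp and Ngp and 0.935 with the S100 profile.

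Other genes of the same granules moved in both directions. For these and the lists after them, the shares of all genes called from day 7 to day 10 were 18.9% higher and 18.1% lower in WT and 19.7% higher and 17.1% lower in KO. Of 14 tested genes of primary granules and promyelocytes, 5 were called higher and 6 lower on day 10 than on day 7 in WT, and 2 higher and 6 lower in KO. Ms4a3, a membrane protein of promyelocytes, rose by 2.65 ± 0.46 in WT and 1.49 ± 0.43 in KO (log2 fold change ± SE, edgeR adjusted p = 0.00014 and 0.0100). Lyz2, the lysozyme that neutrophils share with macrophages, fell by 1.01 ± 0.22 in WT and fell by 1.32 ± 0.22 in KO (edgeR adjusted p = 0.0012 and 0.00012). Lyz2 alone took 11.4% to 13.5% of TPM on day 7 and 4.45% to 8.10% later. Prss57 rose by 1.46 ± 0.44 in WT (edgeR adjusted p = 0.013) and had 0.42 ± 0.42 in KO (edgeR adjusted p = 0.47).

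Of 18 tested genes of specific and gelatinase granules, 9 were called higher and 3 lower on day 10 in WT (18.9% and 18.1% of all genes), and 4 higher and 5 lower in KO (19.7% and 17.1%). Wfdc21 rose by 2.28 ± 0.23 in WT and 1.43 ± 0.22 in KO (edgeR adjusted p = 4.5e-07 and 5.5e-05). Olfm4, a specific granule protein, rose by 1.84 ± 0.29 in WT and 0.79 ± 0.27 in KO (edgeR adjusted p = 4.9e-05 and 0.028). Retnlg fell by 1.77 ± 0.54 in WT and fell by 1.92 ± 0.55 in KO (edgeR adjusted p = 0.013 and 0.0093). On day 7, Abca13 (1.15 ± 0.28) and Wfdc21 (0.95 ± 0.22) were higher in KO than in WT, with edgeR adjusted p of 0.048 and 0.039. These were 2 of 18 called higher, against 1.45% of all genes called in either direction. None of the 14 other primary granule genes was called on that day.

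Of 16 tested genes of mature neutrophils, 6 were called higher and 2 lower on day 10 in WT (18.9% and 18.1% of all genes), and 3 higher and 4 lower in KO (19.7% and 17.1%), with medians of 0.46 and 0.25. Ly6g, the defining surface antigen of mouse neutrophils, stood at 4.94 to 59.0 TPM over the libraries and was not at 0 in any. From day 7 to day 8, 8 of the 16 genes were called higher and 6 lower in WT, against 43.4% of all genes called in either direction. In KO 5 were called higher and 6 lower, against 42.0%. The medians were 0.52 in WT and 0.07 in KO. Among the genes called lower between these days, Ly6g fell by 2.06 ± 0.34 in WT and by 1.96 ± 0.34 in KO (edgeR adjusted p = 5.7e-05 and 0.00012). Csf3r, the G-CSF receptor, fell by 1.18 ± 0.16 in WT and by 1.39 ± 0.16 in KO (edgeR adjusted p = 5.7e-06 and 8.7e-07). Values of the genes called higher from day 7 to day 8 are not given here. Il1r2, the decoy receptor for interleukin 1, rose by 3.30 ± 0.41 in WT and 2.30 ± 0.39 in KO from day 7 to day 10 (edgeR adjusted p = 5.8e-06 and 0.00012).

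Among 9 transcription factors of granulocyte differentiation, 3 were called higher and 2 lower on day 10 in each genotype, against 18.9% and 18.1% of all genes in WT and 19.7% and 17.1% in KO. Cebpe, which switches on specific granule genes, rose by 1.03 ± 0.18 in WT and 0.52 ± 0.18 in KO (edgeR adjusted p = 0.00019 and 0.028). Gfi1, a repressor needed for neutrophil maturation, rose by 0.77 ± 0.25 and 0.89 ± 0.25 (edgeR adjusted p = 0.022 and 0.0093). Irf8, which favours monocytes and dendritic cells over granulocytes, fell by 0.80 ± 0.07 and 0.82 ± 0.07 (edgeR adjusted p = 1.8e-07 and 1.5e-07). Of 7 tested other S100 genes, 5 rose in WT, and 4 rose and 1 fell in KO. S100a4 changed by 2.80 ± 0.26 in WT and 1.44 ± 0.24 in KO (edgeR adjusted p = 2.3e-07 and 0.00011). In KO against WT on day 7, 1 of these 7 S100 genes was called higher, against 1.45% of all genes called in either direction. Of 5 tested inhibitors of the serine proteases, 2 rose and 1 fell in each genotype, with Serpinb1a, an inhibitor of elastase and cathepsin G, higher by 1.63 ± 0.25 in WT and 1.05 ± 0.24 in KO (edgeR adjusted p = 4.2e-05 and 0.0021).

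Markers of other cells in the cultures were read over the same days, in which 18.9% of all genes were called higher and 18.1% lower in WT, and 19.7% higher and 17.1% lower in KO. Of 11 dendritic cell markers 8 were called higher on day 10 in each genotype, and their summed level went from 2481 to 3367 TPM in WT on day 7 to 7712 to 10710 TPM on day 10, and from 3143 to 4406 TPM to 6492 to 14870 TPM in KO. Of 10 macrophage markers 1 was called higher and 6 lower in WT and 1 higher and 7 lower in KO, with summed levels of 6819 to 7510 TPM on day 7 and 4825 to 5087 TPM on day 10 in WT. In KO they were 6632 to 8172 and 4820 to 6463 TPM. Of 6 monocyte markers 1 rose and 2 fell in WT and 1 rose and 3 fell in KO, with 873.7 to 1122 and 429.6 to 646.6 TPM in WT and 1114 to 1260 and 365.0 to 656.6 TPM in KO.

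Of 13 eosinophil, basophil and mast cell markers 4 were called higher on day 10 in WT, with sums of 588.1 to 731.4 and 916.3 to 1167 TPM, and 2 higher and 1 lower in KO, with 688.5 to 1400 and 645.5 to 1050 TPM. Of 7 progenitor markers 2 rose in each genotype, with sums of 25.9 to 27.8 and 42.4 to 46.7 TPM in WT and 27.9 to 31.5 and 48.5 to 69.1 TPM in KO. Only 3 of 10 erythroid and lymphoid markers were abundant enough to test. Of these 0 were called in WT and 1 was called lower in KO, with sums of 0.94 to 4.51 TPM in WT and 2.28 to 7.30 TPM in KO on these days. None of these cell type lists had a gene at 0 in every library. The part of these markers in the changes of the granule genes was not tested.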

How the data were processed

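Messenger RNA was sequenced in 24 libraries, with 3 mice in each of 8 groups set by the genotype and day labels. The authors deposited raw counts per gene and TPM per gene, whose gene lengths are not given in the sources used here. FastQC 0.11.9, STAR 2.6.1, DESeq2 1.22.2 and build mm10 are named per the submitters' processing notes. Kits of 2 kinds, both strand-specific, are named per the labels' protocols but are not assigned to libraries, so none was fitted as a term.

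Of 28655 genes with any count, 14535 passed filterByExpr with the 8 groups as its grouping. Counts were scaled by TMM and tested in 1 edgeR 4.0.16 quasi-likelihood fit of all 24 libraries (R 4.3.3, 16 residual degrees of freedom), in 9 comparisons, both directions, with a Benjamini-Hochberg adjusted p under 0.05 over all genes tested as the threshold. CPM values carry the TMM factors. Standard errors are the absolute log2 fold change divided by the square root of F. The fit was tested on simulated data, but no result of that is given or used here. Alternatives were DESeq2 1.42.0, limma 3.58.1 on log2(TPM + 1) and log2(TPM + 0.1), no filter, only the groups compared, each mouse number left out and the number as a replicate block. Those using Ddx3y were chosen after seeing the data. A count of a PCR product without molecular identifier covers counting error only, and 24 pairs of libraries within groups differed by 7.1 to 125 times sampling noise (chi-square per degree of freedom).

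The labels number the mice, but the fit has no mouse term, so the p-values given are unpaired except where a replicate block is named. Over 10683 autosomal genes, deviations of same-numbered libraries had mean r of 0.17 to 0.37 in WT, -0.37 to 0.45 in KO as labelled and 0.38 to 0.70 in KO with numbers exchanged on days 8 and 10. Labels do not say whether libraries of a number were separate cultures.

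The 10 members and 12 lists of 136 other genes (BC100530 was absent from the table) were chosen with earlier results of these data known. All members are named. From each list up to 4 called genes with the largest change per comparison are named, and others (Ly6g, Csf3r, Cebpe, Gfi1, Irf8, Itgax, Cd74, Flt3, Cd209a, Dpp4) for their role, chosen after their values were seen. The 5 genes with the highest Pearson r to each class profile are named. Positions are GENCODE M21 on GRCm38, in which 55094 of 55487 identifiers had the same version, and promoters are RefSeq on GRCm38.p6, found for 10 of 10.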

Additional observations from a re-analysis of the deposited data

How the results depend on the processing

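The 10 genes in 9 comparisons were refitted under 16 alternatives. Of the single log2 fold changes, 1372 kept direction and side of the threshold or moved by less than their standard error, 20 uncalled ones moved further, 32 became called, 16 lost their call and 0 called ones reversed. Uncalled signs changed 102 times, in 37 of 90 pairs of gene and comparison. This includes the limma-trend fits on TPM, where medians over all genes were 0.165 to 0.299 for the comparisons of days. For KO against WT on day 7 the count of the 10 called was 1 in the DESeq2 Wald test (3.60% of all genes called in that fit), without a filter (1.19%) and with Ddx3y as covariate (1.65%), against 0. For day 8 against day 7 in WT it was 1 with only the groups compared (56.2%) and with the exchanged replicate block (52.0%), against 0. For day 8 against day 7 in KO it was 1 with only the groups compared (16.2% of all genes lower) and with both limma-trend fits on TPM (11.2% lower in each), 5 with the exchanged block (24.9%) and 1 to 2 with a mouse number left out (15.6% to 19.3%), against 2. For day 10 against day 7 it was 1 to 8 in WT (12.3% to 20.7% of all genes higher) and 0 to 3 in KO (11.5% to 20.2%) with a number left out, against 6 and 0. For the difference of these changes it was 2 with the exchanged block (1.27% lower), against 0. That block also called Prtn3 higher on day 10 than on day 7 in WT (22.1% of all genes higher). The mouse number as a replicate block gave 7 in WT for day 10 (18.9% higher) and 3 in KO for day 8 (20.9% lower) and added only Lcn2. The block left the remaining counts at 0. The cause of these moves was not tested.

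Over all genes, the day 7 genotype count of 211 was 11 to 351 with a number left out, 523 in the Wald test, 340 without a filter and 120 with limma-trend on log2(TPM + 1). The share of counts in place of TPM gave 2.29 for WT and 1.16 for KO as the ratio of summed levels, against 2.43 and 1.24. With a number left out it was 2.22 to 2.71 in WT and 0.946 to 2.10 in KO, and over the libraries with low Ddx3y 2.22 and 1.203; these were chosen after seeing the data. Lower depth was not tried, and whether depth or the spread between 3 libraries a group limits the calls was not tested.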
